A study of Mus musculus with 6 samples.

Results

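The 2 control livers of the series were compared with each other, the corn oil library with the SD library. They are 2 of the 6 liver libraries sequenced, and each is the reference for its own disease model. SD mice were the controls of the diet model, in which other mice received HFD or HFD plus JT003, a peptide agonist of the adiponectin receptors. The corn oil mice were the controls of the CCl4 model, in which fibrosis was induced with CCl4 dissolved in that oil. All mice were male C57BL/6J (C57BL/6 in the labels), 6 to 8 weeks old by the labels, and fasted before sacrifice, and neither control group received JT003. The SD library is labelled as a chow control, while the methods describe a purified low-fat diet rich in carbohydrate, fed for 16 weeks. The corn oil mice were injected intraperitoneally for 6 weeks, and their diet is not given in the sources used here. Diet, weeks on the protocol (and hence age at sampling), the injections and the experiment therefore cannot be told apart in this comparison. Whether a library held RNA from a single mouse or a pool, and the time of day of sampling, are not given either. With 1 library per group there was no replicate check and no test, and each ratio compares 2 libraries and not 2 conditions.

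Of the 18444 genes listed in any library, 13302 had 10 or more counts in either control library and were compared. Rounded counts summed to 20184557 in SD and 19409752 in corn oil. Each log2 ratio is corn oil over SD, so that a positive value is higher in corn oil, after scaling of the library sizes by TMM, with a prior count of 2. Brackets hold a 95% interval by the Clopper-Pearson method. It covers the error of counting reads and not the spread between mice. A gene is called past 2-fold when its log2 ratio is 1 or more in size.

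The liver switches its metabolism between feeding and fasting. In fasting, fatty acids released from fat tissue activate the nuclear receptor PPARα, which turns on their oxidation, while insulin after a meal turns on glycogen and lipid synthesis. Hepatocytes also clear drugs and steroids through cytochromes P450 controlled by the xenobiotic receptors CAR and PXR, and many of these genes follow the clock and the sex-dependent pattern of growth hormone. Kupffer cells, the resident macrophages, line the sinusoids beside a fenestrated endothelium.

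Both libraries had the expression of hepatocytes. None of the 18 hepatocyte genes was past 2-fold, and their log2 ratios lay between -0.74 (Apob) and 0.92 (Apoc3), with a median of 0.20. Albumin (Alb), the main plasma protein, took 5.29% of the reads in SD and 5.75% in corn oil. Skeletal muscle and pancreatic acinar genes were near 0 in both, except Cela1, with 102 counts in SD and 146 in corn oil. The 4 Y-linked genes were within 2-fold, and Xist, the RNA of the inactive X chromosome, had 3 counts in SD and 18 in corn oil.

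The control livers differed at 1470 genes past 2-fold (11.1% of 13302). Of these, 681 were higher in corn oil (5.12%) and 789 were lower (5.93%). The median size of a log2 ratio was 0.38, and 69.4% of the genes were within 1.5-fold. A total of 253 genes were past 4-fold and 58 past 8-fold. Among the 9353 genes with 100 or more counts in either library, 634 were past 2-fold (6.78%), 227 higher (2.43%) and 407 lower (4.35%). Scaling to total counts gave 557 higher and 964 lower genes, so that 36.6% of the genes past 2-fold were higher in corn oil instead of 46.3%, with the median over all genes at -0.09. With TMM over the 2 control libraries 678 genes were higher and 794 lower, and with DESeq2 size factors 679 and 794. With the Mup genes left out of the totals, 770 genes were higher and 703 lower. The TMM factors in that setting still came from the full counts, so the Mup genes were in part allowed for a second time. The median over all genes was then 0.06, so no conclusion on the larger side is drawn from it.

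For size, the comparisons within the models give a scale. HFD over SD had 1345 genes past 2-fold of 13335 (10.1%), and CCl4 over corn oil had 1829 of 13602 (13.4%). Both share a control library with the comparison described here. The pair with the fewest genes past 2-fold was HFD and HFD plus JT003, at 4.71%. The control pair stood below the other 8 pairs across the models, which ranged from 15.5% to 19.8%. By the median size of a log2 ratio, however, the control pair (0.38) was above every pair within a model (0.22 to 0.34). It was below the other pairs across the models by that measure too (0.39 to 0.48).

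**Figure D1:**
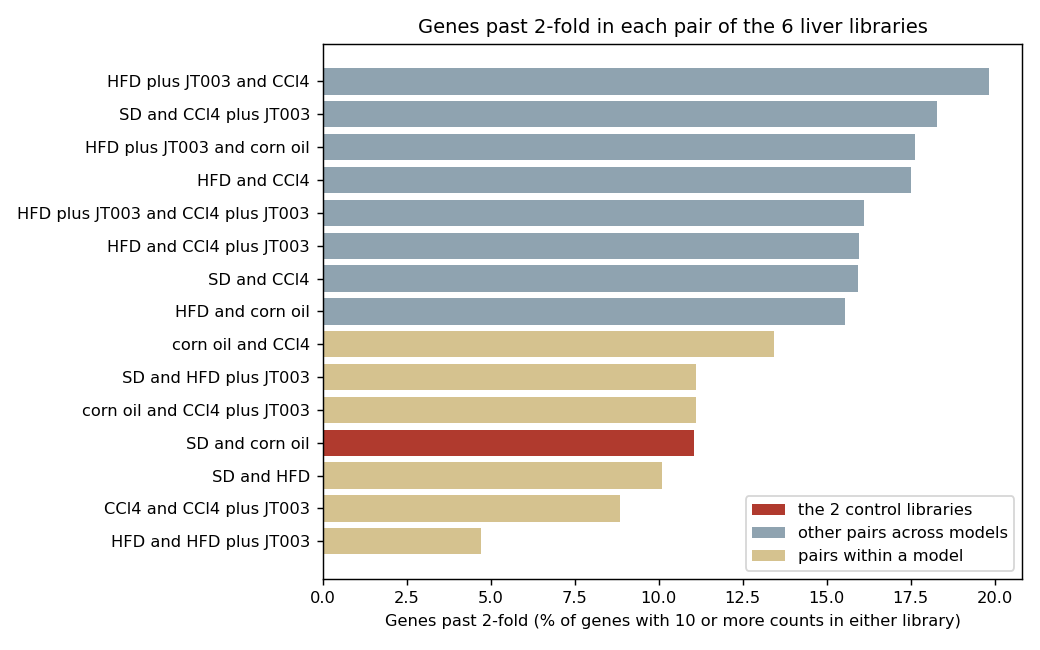
Genes past 2-fold in each of the 15 pairs of liver libraries, as a percent of the genes with 10 or more counts in either library of the pair. The pair of control libraries (dark red) is at 11.1%, among the pairs within a model (sand) and below the other pairs across models (grey).

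Transcript length moved with the ratio. Over the 13302 genes, the log2 ratio had a Spearman rho of -0.41 with transcript length, a description across genes that share the 2 libraries. When the genes were split into 5 bins by length, the shortest bin (up to 1583 bases) had a median log2 ratio of 0.36, and 9.10% of its genes were past 2-fold higher and 3.97% lower. The longest bin (4607 bases or more) had a median of -0.33, with 2.89% higher and 9.17% lower. Every pair of 1 library from each model showed such a relation, with rho between -0.28 and -0.43 for the CCl4 model over the diet model, whereas the 6 pairs within a model had rho between -0.01 and 0.17. The rho with transcript GC content was 0.14. The part of length in the differences was not tested. After the median of 20 length bins was subtracted, 1317 genes were past 2-fold, 636 higher and 681 lower.

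**Figure D2:**
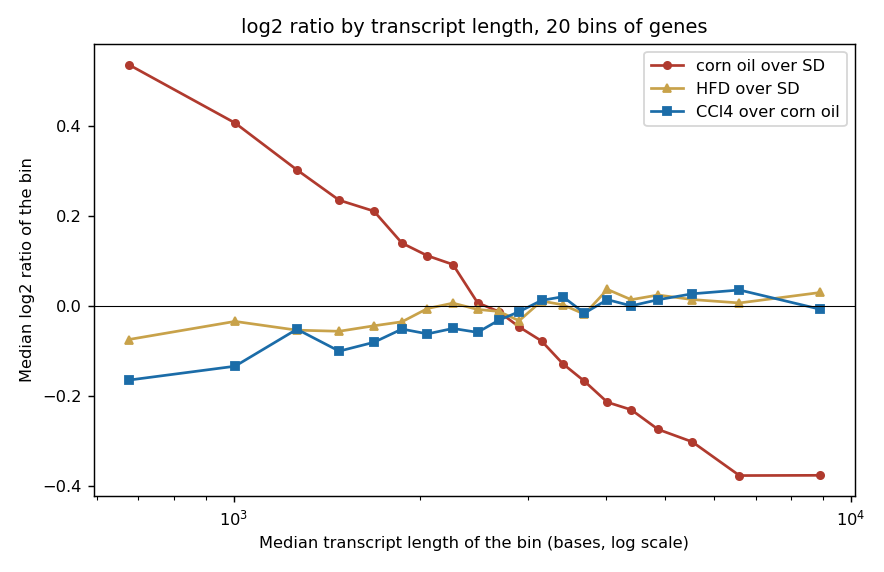
Median log2 ratio in 20 bins of transcript length (bases, log axis), over the genes compared between the control libraries. Corn oil over SD (red circles) goes from positive in short transcripts to negative in long ones, while HFD over SD and CCl4 over corn oil stay closer to 0.

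The genes were read in 39 lists of pathways, cell types and responses. The largest negative medians were those of Kupffer cell and macrophage genes (-1.59), PPARα targets (-0.61) and sinusoidal endothelial genes (-0.60). The largest positive medians in lists with 10 or more genes compared were those of cytochromes P450 of xenobiotics (0.99), major urinary proteins (0.84), immediate early and glucocorticoid genes (0.57) and clock genes of the Dbp phase (0.53). The median over all genes was -0.00208. Subtracting the length bins moved the median of the periportal list from 0.33 to 0.08, of hepatocyte genes from 0.20 to 0.07, of immediate early and glucocorticoid genes from 0.57 to 0.35 and of MHC genes from -0.39 to -0.64. It turned the sign of the medians of the interferon-inducible (0.18 to -0.03), lymphocyte (0.50 to -0.03), red blood cell (0.37 to -0.07) and female-biased lists (0.08 to -0.01). The medians of the stellate cell (-0.05 to 0.08) and Y chromosome and X inactivation lists (-0.02 to 0.05) turned as well, so no direction is given for any of these lists.

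**Figure D3:**
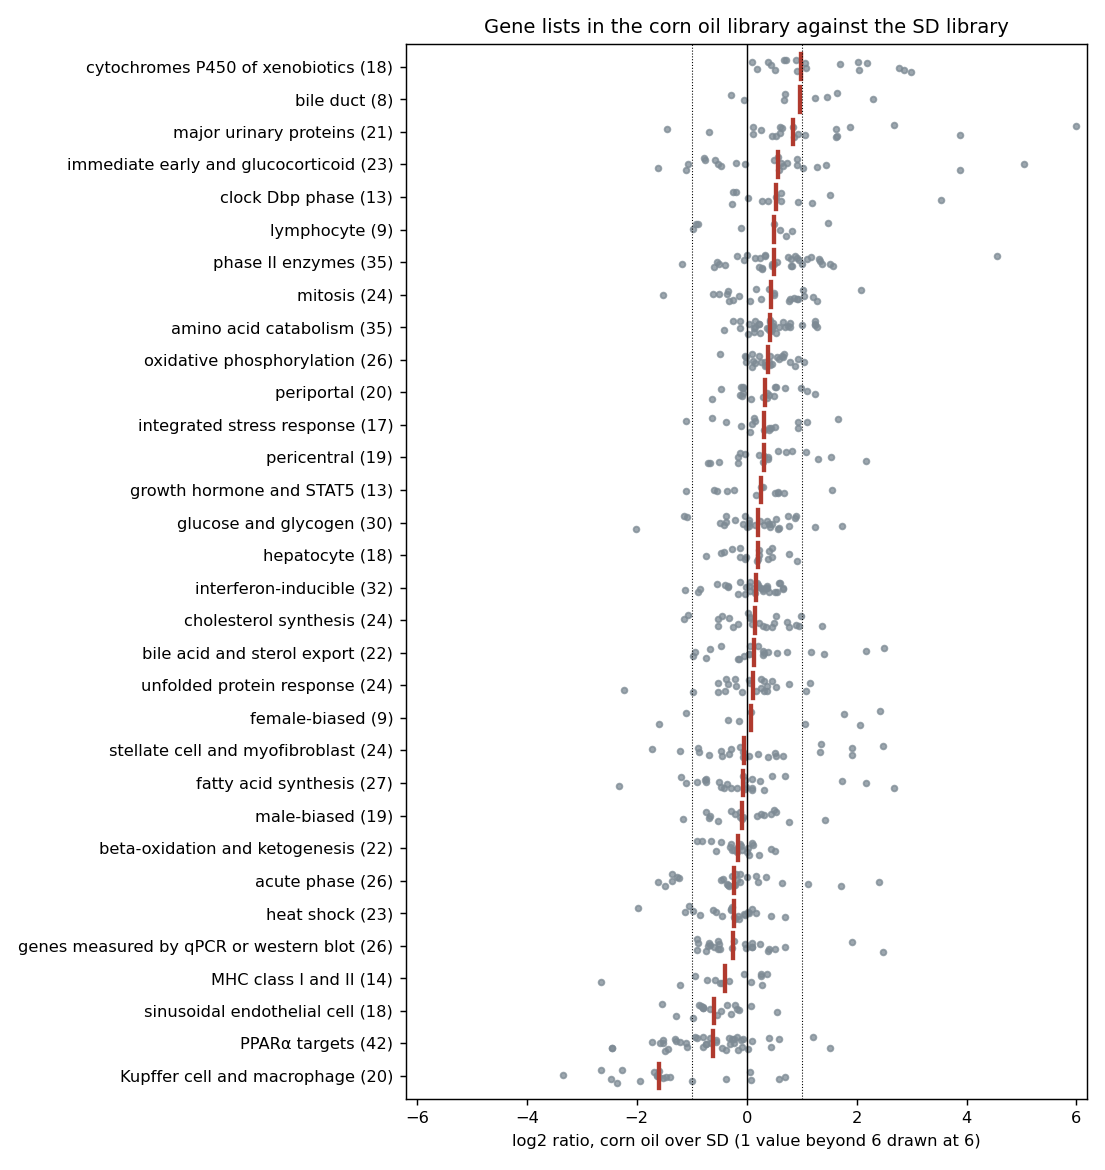
log2 ratio of corn oil over SD for the members of each list with 8 or more genes compared (grey points, number in parentheses), with the list's median (red bar). Dotted lines mark 2-fold and the solid line the median of all genes. Kupffer cell and macrophage genes have the lowest median, -1.59, and cytochromes P450 of xenobiotics the highest, 0.99.

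Kupffer cell genes were the most displaced list. Of 20 genes compared, 14 were past 2-fold lower in corn oil (5.93% of all genes) and none higher. Adgre1, which encodes the macrophage protein F4/80, had 290 counts in SD and 24 in corn oil, a log2 ratio of -3.35 [-4.11, -2.84]. Csf1r, the receptor for the growth factor that keeps macrophages alive, had 1153 and 202 counts (-2.35 [-2.59, -2.15]). SD was the higher library for both, by 10.2 times for Adgre1 and 5.11 times for Csf1r.

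Markers particular to resident Kupffer cells were lower as well. Timd4, a receptor for dying cells, had 110 counts in SD and 19 in corn oil. Clec4f, a lectin of Kupffer cells, had 1418 and 413, and Vsig4, a complement receptor, 329 and 76. Marco, a scavenger receptor (295 and 41), and Cd5l, a protein secreted by macrophages (1824 and 296), were lower by 6.24 and 5.53 times. The complement genes C1qa, C1qb and C1qc, made by macrophages in liver, were lower by 2.63 to 3.02 times. Siglec1, a sialic acid-binding receptor of macrophages that was in no list but was among the 15 largest falls, had 282 and 22 counts (-3.42).

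The 6 members that were not past 2-fold were Ccr2, Cx3cr1, Ly6c2 and Itgax, which mark monocytes and other myeloid cells, and Gpnmb and Spp1, which mark macrophages of injured liver and, for Spp1, bile duct cells. Of these, Ccr2 had 19 counts in SD and 18 in corn oil, and Ly6c2 22 and 21. Spp1 had 398 and 582.

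Corn oil was also low against the other libraries. It was the lowest of the 6 libraries for 15 of the 20 genes, against 16.2% of all genes compared. The summed level of the list was 170.4 CPM (counts scaled to a common effective library size) in corn oil and 515 in SD, and the remaining 4 libraries lay between 527 and 670. CCl4, the next library of the same model, was at 527. Adgre1 had 191 counts in CCl4 and 151 in CCl4 plus JT003. In bulk liver, fewer cells of a type and less RNA per cell cannot be told apart. Subtracting the length bins gave a median of -1.93 with 14 genes lower.

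**Figure D4:**
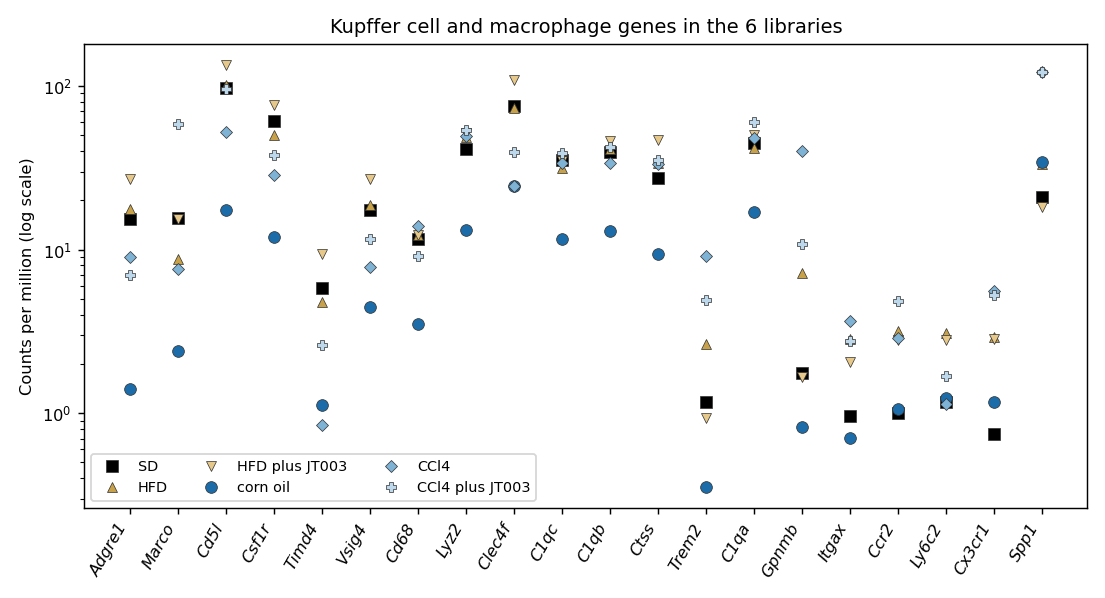
Level (CPM, log axis) of the 20 Kupffer cell and macrophage genes in the 6 libraries, ordered by the ratio of corn oil over SD. Corn oil (blue circles) is below SD (black squares) for 16 genes, and the lowest of the 6 libraries for 15.

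Sinusoidal endothelial genes were lower to a smaller degree. Of 18 genes, 16 had a ratio below 0, but only Kdr and Cdh5 were past 2-fold lower (11.1%, against 5.93% of all genes). Kdr, the receptor for vascular endothelial growth factor, had 1042 counts in SD and 320 in corn oil (-1.55 [-1.74, -1.37]). Cdh5, the cadherin of endothelial junctions, had 595 and 218 (-1.29). The scavenger receptor Stab1 (978 and 779) and the lymphatic and sinusoidal receptor Lyve1 (144 and 138) were close between the libraries. The remaining libraries of the CCl4 model were lower still, with a summed level of 233 CPM in CCl4 and 328 in CCl4 plus JT003, against 408 in corn oil and 650 in SD.

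PPARα targets had the second lowest median, after the Kupffer cell list. Of 42 genes, 35 had a ratio below 0. Past 2-fold were 13 lower in corn oil (31.0%, against 5.93% of all genes) and 2 higher (4.76%, against 5.12%). Pdk4, the kinase that blocks entry of pyruvate into the mitochondrial cycle in fasting, had 2207 counts in SD and 364 in corn oil, a log2 ratio of -2.44 [-2.61, -2.29]. Ehhadh, the bifunctional enzyme of peroxisomal oxidation, had 161285 and 48808 (-1.57). It lost more CPM than any other gene, from 8551 to 2871.

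Several other targets were lower. Fgf21, the hormone secreted by the fasted liver, had 691 counts in SD and 215 in corn oil (-1.53 [-1.76, -1.31]). Plin2, which coats lipid droplets, had 56306 and 22002, and Cidec, which fuses them, 5423 and 1987. Aldh3a2, which oxidises fatty aldehydes, was lower by 2.82 times and Fitm2, a protein of droplet formation, by 2.69 times. The thioesterases Acot2, Acot3 and Acot4 were lower by 2.88, 2.14 and 2.12 times. They have near-identical neighbours, so that their reads may have been split among copies, but the sum over Acot1 to Acot6 was also lower, 15555 against 6818 counts. Cpt1b, Pex11a and Aqp3 completed the 13.

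Other targets moved little. Angptl4, the inhibitor of lipoprotein lipase, had 5419 and 4957 counts (0.02), and Slc25a20, the mitochondrial carnitine carrier, 5296 and 4521 (-0.08). The Cyp4a genes, which hydroxylate fatty acids, summed to 310980 counts in SD and 195880 in corn oil, a log2 ratio of -0.52. Cyp4a10 was at -0.10 and Cyp4a14 at -0.79. The 2 targets higher in corn oil were Plin4 (532 and 1106) and Fitm1 (313 and 813). None of the 22 mitochondrial β-oxidation and ketogenesis genes was past 2-fold, and their values ranged from -0.91 (Cpt1a) to 0.52 (Etfb). The gene of the receptor itself, Ppara, was at -0.90, or -0.52 with length bins subtracted.

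SD stood highest of the 6 libraries for 28 of the 42 PPARα targets, against 17.8% of all genes. Pdk4 had 128 counts in HFD, 259 in HFD plus JT003, 1849 in CCl4 and 1460 in CCl4 plus JT003. Ehhadh had 6754, 15107, 38856 and 26293 in the same order. Ehhadh in corn oil was thus below SD and above every treated library by raw count, whereas Pdk4 in corn oil was above both HFD libraries and below both CCl4 libraries.

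Gm15441, a transcript antisense to Txnip, was among the 15 largest falls, with 5570 counts in SD and 723 in corn oil (-2.79 [-2.91, -2.68]). Txnip itself, which restrains glucose uptake, had 3886 and 2804 (-0.32). Whether strand was used in counting is not given in the sources used here, so reads of the overlapping pair may not have been told apart. Apoa4, an apolipoprotein of the fasted liver, was among the 10 largest losses in CPM, at 142917 and 57854 counts (-1.15), as was the acyl-CoA synthetase Acsl1, at 88579 and 39257 (-1.02).

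Lipid synthesis genes were split. Of 27, 3 were higher and 3 lower in corn oil (11.1% each, against 5.12% and 5.93% of all genes), and the median was -0.06. Lpin1, the phosphatidate phosphatase that also acts as a nuclear coactivator, had 707 counts in SD and 4093 in corn oil (2.68 [2.57, 2.80]). Thrsp, a lipogenic nuclear protein, had 84 and 347 (2.17). Gpam, the first enzyme of glycerolipid synthesis, was on the opposite side with 3355 and 601 (-2.33 [-2.46, -2.21]).

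Fads2, a desaturase of polyunsaturated fatty acids (9840 and 3874), and Acacb, the acetyl-CoA carboxylase at mitochondria (2806 and 1180), were also lower. Acacb is a long transcript and was at -0.72 with the length bins subtracted, inside 2-fold. Fasn and Scd1, the fatty acid synthase and the main desaturase of liver, were at 0.25 and 0.09. Of 24 cholesterol synthesis genes, Tm7sf2 was higher (908 and 2130) and Hsd17b7 (2461 and 1009, -1.14, or -0.90 with the length bins subtracted) and Stard4 (342 and 147) were lower. These shares, 4.17% higher and 8.33% lower, were near those of all genes (5.12% and 5.93%). The list's median of 0.16 became 0.27 with the length bins subtracted.

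In glucose metabolism, 2 of 30 genes were higher (6.67%, against 5.12% of all genes) and 3 lower (against 5.93%). Irs2, the insulin receptor substrate that falls after feeding, had 580 counts in SD and 128 in corn oil (-2.01 [-2.32, -1.75]). Igfbp1, secreted in fasting, had 5316 and 2266, and Ppp1r3g, a glycogen-targeting subunit, 194 and 78. Sds, which converts serine to pyruvate, had 2991 and 6393 (1.25, or 0.94 with length bins subtracted). Pck1 and G6pc, the gluconeogenic enzymes, were at 0.37 and -0.48.

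Amino acid catabolism stood higher in corn oil. Of 35 genes, 31 had a ratio above 0, with a median of 0.43. Past 2-fold, 5 were higher (14.3%, against 5.12% of all genes) and none lower. With the length bins subtracted, 3 were past 2-fold and the median was 0.37. Bhmt, which methylates homocysteine with betaine, had 57484 counts in SD and 122305 in corn oil (1.24 [1.22, 1.25]). The proline dehydrogenase Prodh had 1232 and 2639 (1.25). Corn oil was the highest of the 6 libraries for 22 of the 35 genes, against 18.4% of all genes. Of the urea cycle enzymes, Asl had 12773 and 24522 counts (1.09) and Otc 3293 and 5868 (0.98), while the longer Cps1 had 72063 and 47181 (-0.46).

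The 26 oxidative phosphorylation genes had a median of 0.38, with only Ndufa2 past 2-fold (1.05), or 3.85% higher against 5.12% of all genes. These transcripts are short, with a median length of 1187 bases, and the median with the length bins subtracted was 0.09, with no gene past 2-fold.

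Metallothioneins had the largest ratios of the stress and hormone genes. These small cysteine-rich proteins bind zinc and copper, and their genes respond to metals and glucocorticoids. Mt1 had 815 counts in SD and 10896 in corn oil, 14.8 times higher (3.89), with a counting interval of the ratio from 13.8 to 15.9. Mt2 had 160 and 4795, 32.8 times higher (5.04 [4.83, 5.29]). SD was the lowest of the 6 libraries for both. Mt1 had 1780 counts in HFD, 1793 in HFD plus JT003, 4102 in CCl4 and 22032 in CCl4 plus JT003, so that the libraries of the CCl4 model were all above those of the diet model. Mt2 had 666, 726, 2401 and 9183 in the same order.

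The promoters of both genes are shown because they hold several copies of TGCNCNC on either strand. These letters are a looser form of the metal response element core, TGCRCNC, in which R is A or G. The looser motif was chosen after the values of Mt1 and Mt2 were seen. The sequences are from RefSeq (GRCm38.p6), 250 bases before to 50 after the start, with each match in capitals. Mt1 (chr8:94178839-94179138, plus strand) held 3 matches and Mt2 (chr8:94172368-94172667, plus strand) held 6.
Mt1: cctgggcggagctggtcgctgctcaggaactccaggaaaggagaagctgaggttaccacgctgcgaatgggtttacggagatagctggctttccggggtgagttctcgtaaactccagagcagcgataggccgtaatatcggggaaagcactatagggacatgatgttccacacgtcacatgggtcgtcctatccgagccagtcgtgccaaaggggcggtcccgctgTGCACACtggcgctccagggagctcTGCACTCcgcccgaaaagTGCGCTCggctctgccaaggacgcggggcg
Mt2: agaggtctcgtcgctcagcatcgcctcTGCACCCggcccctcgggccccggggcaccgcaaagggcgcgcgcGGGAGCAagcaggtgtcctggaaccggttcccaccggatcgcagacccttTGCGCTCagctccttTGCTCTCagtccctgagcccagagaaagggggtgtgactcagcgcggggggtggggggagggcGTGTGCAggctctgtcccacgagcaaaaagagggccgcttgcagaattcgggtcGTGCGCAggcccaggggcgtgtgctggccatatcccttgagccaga

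Of all 32851 promoters in the table, 51.0% held at least 1 match to this short motif, 7.10% at least 3 and 0.225% at least 6. Among list members past 2-fold with 100 or more counts and a promoter in the table, the motif was in 21 of 48 higher genes (43.8%). It was in 27 of 44 lower genes (61.4%), so its presence did not go with the higher genes. Here a gene was counted if any of its promoters held the motif, and by that rule the share over all genes was 53.6%. A match is a run of letters and not a measured binding site.

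Among the other immediate early and glucocorticoid genes, Fkbp5, the chaperone of the glucocorticoid receptor, had 746 counts in SD and 1824 in corn oil (1.44). Tsc22d3, which encodes the glucocorticoid-induced leucine zipper protein, had 698 and 1531 (1.28). Ier2, an immediate early gene, had 316 and 583, at 1.03 and at 0.79 with the length bins subtracted. In all, 5 of 23 genes were higher (21.7%, against 5.12% of all genes) and 3 were lower (13.0%, against 5.93%). The lower ones were Jun (811 and 349), Atf3 (38 and 15) and Lcn2 (712 and 208), the last also an acute phase gene.

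The list of cytochromes P450 of xenobiotics was higher throughout in corn oil. It also held Por, the reductase that serves P450s, and the receptor genes Nr1i2, Nr1i3 and Ahr. All 18 genes compared had a ratio above 0, and 9 were past 2-fold higher, against 5.12% of all genes. Another 8 members had fewer than 10 counts in both libraries and were not compared. SD was the lowest of the 6 libraries for 12 of the 18, against 14.98% of all genes. With the length bins subtracted, 7 were past 2-fold and the median was 0.89.

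Cyp3a11, the main drug-metabolising P450 of the mouse and a PXR target, had 8921 counts in SD and 64109 in corn oil, 7.97 times higher (2.99 [2.96, 3.03]). It had 12119 and 14271 counts in the 2 HFD libraries and 140654 and 147107 in the 2 CCl4 libraries, so corn oil stood with its own model. Cyp3a25 had 2292 and 14129 counts, and Cyp3a59, among the 15 largest rises, 73 and 800. Reads of such close copies may have been split, but the family sum was also higher, 14835 in SD against 82472 in corn oil (2.62).

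Cyp2a5, a coumarin hydroxylase, had 670 counts in SD and 4395 in corn oil (2.86). Unlike Cyp3a11 it was high in the HFD libraries (6101 and 17345), and it had 1108 counts in CCl4 and 4386 in CCl4 plus JT003. SD was thus the lowest library (35.5 CPM), followed by CCl4 (52.3 CPM), with corn oil at 258.5 CPM. Cyp1a2, which metabolises caffeine, had 3545 and 6742 (1.08, or 0.94 with length bins subtracted). Cyp2c38 and Cyp2c54 were at 2.03 and 1.05. Cyp2b genes, the classic targets of CAR, summed to 1 count in SD and 5 in corn oil, against 922 in HFD, so they were near 0 in both controls.

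Cyp26a1, which degrades retinoic acid and is induced by it, was second to Mup9 among the largest rises. It had 3 counts in SD and 273 in corn oil, a ratio of 101 without a prior count, with a counting interval from 34.2 to 493, or 59.8 with the prior count. It had 44 and 20 counts in the HFD libraries and 506 and 957 in the CCl4 libraries.

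The list of phase II enzymes, which conjugate drugs, was mostly higher. It also held genes that do not conjugate, such as Ces2a, Ephx1, Nqo1 and Hmox1. Of 35 genes, 9 were past 2-fold higher (25.7%, against 5.12% of all genes) and 1 lower (2.86%, against 5.93%), with a median of 0.50. Ces2a, a carboxylesterase, had 2922 counts in SD and 6775 in corn oil, and Sult1d1, a sulfotransferase, 484 and 1246. The glutathione transferase Gsta1 had 1 count in SD and 64 in corn oil, a ratio of 71.0 without a prior count, with an interval from 12.3 to 2848 (23.6 with the prior count). The family sums were higher as well, 5533 and 8778 for Gsta and 18028 and 30224 for Gstm. Hmox1, the haem oxygenase induced by oxidative stress and active in macrophages, was lower (398 and 157). SD was the lowest library for 16 of the 35 genes. With the length bins subtracted, 6 were higher and the median was 0.35.

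In the bile acid list, 4 of 22 genes were higher (18.2%, against 5.12% of all genes) and none lower. Cyp7a1, the rate-limiting enzyme of bile acid synthesis, had 339 counts in SD and 1387 in corn oil (2.18 [2.01, 2.36]). Slco1a4, a transporter that takes up bile acids and drugs, had 354 and 1805 (2.49), and Abcc3, which exports them to blood, 2232 and 4515. Nr0b2, which encodes SHP, the receptor that represses Cyp7a1, was also higher, with 281 and 672.

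Clock genes of the Dbp phase, which peak near the end of the day in mouse liver, were higher in part. Of 13 genes, 10 had a ratio above 0 and 3 were past 2-fold higher (23.1%, against 5.12% of all genes). Ciart, a repressor of the clock, had 13 counts in SD and 155 in corn oil (3.53 [2.91, 4.67]). Dbp, a clock output factor, had 398 and 824 (1.20, or 0.99 with length bins subtracted), and Usp2, a ubiquitin protease, 184 and 479 (1.52). Per3 was at 0.93 and Nr1d1, which encodes REV-ERBα, at 0.02.

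In the list of 7 genes of the Bmal1 phase, only Ciart was past 2-fold. Ciart belongs with the Dbp phase and entered this list as well under its older symbol, Gm129. No other member of the list was past 2-fold. Arntl, which encodes BMAL1, had 195 and 142 counts, and Npas2, its partner, 58 and 27. The 6 libraries differed widely for these genes, and the 2 CCl4 libraries had 96 and 1931 counts of Dbp and 386 and 34 of Arntl. The hour of sampling is not given, so its part in these ratios was not tested. Upp2, a uridine phosphorylase of the liver, was among the 15 largest rises, with 308 counts in SD and 3731 in corn oil (3.74). It had 784 counts in CCl4 and 5438 in CCl4 plus JT003.

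The Ciart promoter (RefSeq GRCm38.p6, chr3:95882179-95882478, minus strand) is shown because it held 3 E-boxes, CACGTG, the letters bound by CLOCK and BMAL1. They are in capitals.
Ciart: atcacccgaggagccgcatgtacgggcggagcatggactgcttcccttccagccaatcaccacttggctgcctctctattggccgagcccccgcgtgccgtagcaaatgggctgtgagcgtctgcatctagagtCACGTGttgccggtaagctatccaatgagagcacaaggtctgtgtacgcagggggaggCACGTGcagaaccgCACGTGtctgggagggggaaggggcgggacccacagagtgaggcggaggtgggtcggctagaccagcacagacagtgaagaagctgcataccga

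Of all promoters, 7.15% held at least 1 E-box and 0.0883% at least 3. Neither Dbp nor Usp2 held one in this window.

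The E-box was 1 of 6 motifs searched for the members past 2-fold with 100 or more counts. A promoter was found for 48 of the 61 such members that were higher and 44 of the 53 that were lower, counting each gene once. The PPAR response element (a direct repeat with a spacer of 1 base) was present in 1 of the 11 lower PPARα targets with a promoter, Acot4. It was in 0.932% of all genes with a promoter, again counting a gene if any of its promoters held it. The match in Acot4 (GRCm38.p6, chr12:84038129-84038428, plus strand) is shown in capitals.
Acot4: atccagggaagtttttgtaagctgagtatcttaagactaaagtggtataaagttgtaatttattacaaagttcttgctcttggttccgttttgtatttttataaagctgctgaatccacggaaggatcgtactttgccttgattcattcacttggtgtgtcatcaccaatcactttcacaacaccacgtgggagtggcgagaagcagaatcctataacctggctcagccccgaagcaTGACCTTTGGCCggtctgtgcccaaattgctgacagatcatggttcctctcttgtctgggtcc

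The E-box was in 4 of the 48 higher and 8 of the 44 lower members (8.09% of all genes with a promoter). The D-box TTANGTAA was in 2 and 1 (2.72%), and the ROR element TAGGTCA in 2 and 3 (2.97%). The STAT5 element TTCNNNGAA was in 8 and 2 (9.55%). The heat shock element was in none of either (0.662%).

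**Figure D5:**
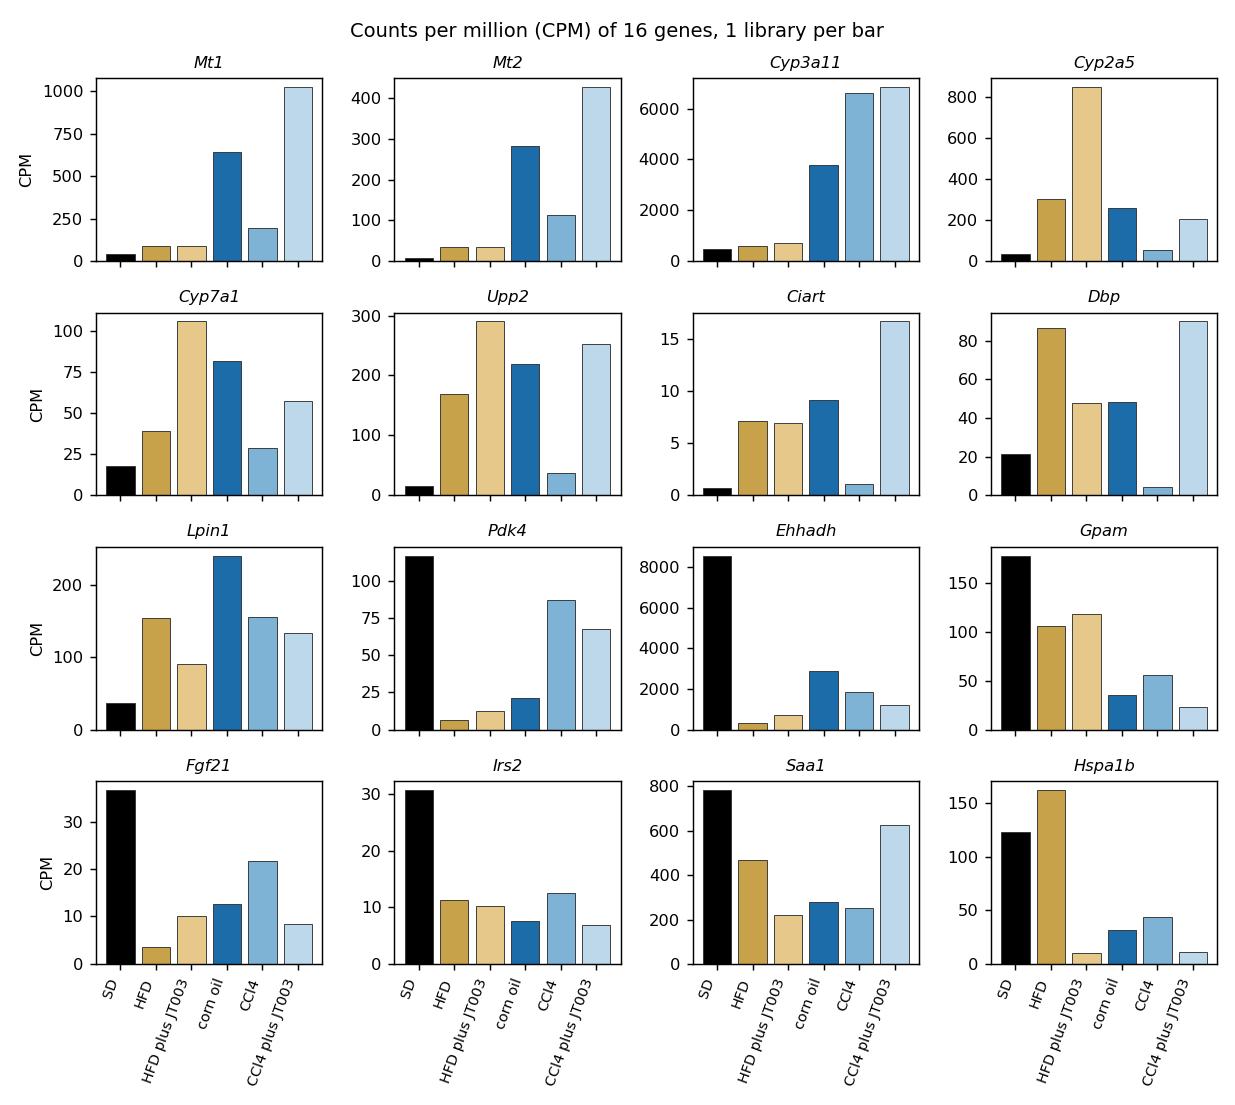
Level of 16 genes in CPM, the counts scaled to a common effective library size, in the 6 libraries, 1 bar per library and 1 panel per gene, each axis starting at 0. SD (black) is the lowest bar for Mt1, Mt2, Cyp3a11, Cyp2a5, Cyp7a1, Upp2, Ciart and Lpin1 and the highest for Pdk4, Ehhadh, Gpam, Fgf21, Irs2 and Saa1.

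Major urinary proteins, small pheromone carriers secreted by the male mouse liver under growth hormone control, took 6.10% of all reads in SD and 10.5% in corn oil. Their sum was 1230520 counts in SD and 2039343 in corn oil, a log2 ratio of 0.88. The CCl4 libraries were at 154826 and 244994, and HFD at 2448545. Of 21 genes, 8 were past 2-fold higher (38.1%, against 5.12% of all genes) and 1 lower (4.76%, against 5.93%). With the length bins subtracted, 7 were higher and 2 lower and the median was 0.43.

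Single Mup genes are nearly identical, and their counts depend on how shared reads were split. Mup9 was at 0 in SD and 5801 in corn oil, 2145-fold higher against a floor of 3 counts, with a counting interval of the ratio from 1744 upward. It was also at 0 in both CCl4 libraries and at 12624 in HFD. Mup17 had 4751 and 63156 counts and Mup15 45274 and 260453, while Mup20, which encodes darcin, had 230715 and 128629. Mup genes were 5 of the 10 largest gains in CPM, beside Alb, Apoe, Bhmt, Serpina1e and Apoa1.

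The growth hormone list and the sex-biased lists were mixed. Of 13 growth hormone genes, Bcl6, a repressor of female-biased genes, was higher (94 and 252) and Onecut1, a liver factor, lower (324 and 135). Each made up 7.69% of that list, near the shares of all genes (5.12% and 5.93%). Igf1, the main growth factor target, was at 0.52. Of 19 male-biased genes, Hsd3b5 was higher (186 and 454) and Moxd1 lower (950 and 383), at 5.26% each also near the shares of all genes. Of 9 female-biased genes compared, 4 were higher, Fmo2 (100 and 384), Cyp2c40 (40 and 203), Cyp2c69 (53 and 168) and Prom1 (10 and 21). Acot3 and A1bg were lower. These were 44.4% higher and 22.2% lower, above the shares of all genes (5.12% and 5.93%). The other 15 female-biased genes had fewer than 10 counts in both libraries.

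Acute phase genes, made by hepatocytes in response to cytokines, were lower in part. Of 26 genes, 6 were past 2-fold lower (23.1%, against 5.93% of all genes) and 3 higher (11.5%, against 5.12%). Saa1 and Saa2, the serum amyloid proteins, had 14765 and 9040 counts in SD and 4759 and 3165 in corn oil. Itih4, a protein that stabilises matrix, had 52004 and 19989 (-1.23), and the complement component C3 had 200459 and 100315 (-0.85). Saa3, Il1rn and Lcn2 were also lower, and Saa4, Orm3 and Hamp2, a hepcidin copy, were higher. The median was -0.22, or -0.35 with the length bins subtracted.

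Stress programmes were mixed. Of 23 heat shock genes, 3 were lower (13.0%, against 5.93% of all genes) and none higher, led by Hspa1b, an inducible HSP70, with 2320 counts in SD and 531 in corn oil (-1.97 [-2.12, -1.84]). It had 3258 counts in HFD and 209 in HFD plus JT003, so this gene varied more within the diet model than between the controls. Of 24 unfolded protein response genes, Manf (585 and 1178) and Sdf2l1 (138 and 265) were higher and the sensor Ern1 (547 and 104) was lower. These shares, 8.33% higher and 4.17% lower, were near those of all genes (5.12% and 5.93%). With the length bins subtracted, Sdf2l1 was inside 2-fold and the list had 1 higher and 2 lower genes. Of 17 integrated stress response genes, 2 were higher (11.8%, against 5.12% of all genes) and 1 was lower. The higher ones were Asns, asparagine synthetase (205 and 590, 1.66), and Ddit4, a stress-induced inhibitor of mTOR (46 and 91, 1.10, or 0.89 with the length bins subtracted), and the lower one was Atf3.

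The other immune lists had few genes past 2-fold by number, though not always as a share. Of 32 interferon-inducible genes, only Oas1a was past 2-fold, on the lower side (97 and 39), or 3.1% against 5.93% of all genes. Of 14 MHC genes, H2-Q6 (130 and 17) and Ciita (26 and 9) were lower (14.3%, against 5.93% of all genes) and none higher. The median of the MHC list was -0.39, or -0.64 with 3 genes lower after the length bins were subtracted, and corn oil was the lowest of the 6 libraries for 8 of the 14 genes. H2-Q6 has near copies, and class I genes together had 73090 and 79761 counts. Of 5 neutrophil genes compared, only S100a8 was past 2-fold, on the higher side (4 and 15), or 20% against 5.12% of all genes.

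Markers of some other cell types were higher at low counts. Of 8 bile duct genes, 4 were higher (50%, against 5.12% of all genes), such as Krt19 (10 and 52) and Epcam (12 and 33). The smooth muscle genes Acta2 (31 and 165, 2.48) and Tagln (83 and 195) led the 5 higher genes of the 24 in the stellate cell list. Those 5 were 20.8% of the list, against 5.12% of all genes. Within that list Reln (1293 and 353) and Col14a1 (873 and 339), made by quiescent stellate cells and by fibroblasts, were lower, and Col1a1 was at 0.52. Msln, a surface protein of mesothelium that was in no list, had 6 and 118 counts, and Slpi, a secreted protease inhibitor of epithelia, 16 and 115.

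Adipocyte genes were few. Cfd, which encodes adipsin, had 2 counts in SD and 175 in corn oil, a ratio of 97.1 without a prior count, with an interval from 26.5 to 808 (47.8 with the prior count), and 454 in HFD. Adipoq, which encodes adiponectin, was at 0 in SD and 11 in corn oil, 4.07-fold higher against a floor of 3 counts. It was at 0 or 1 in the remaining 4 libraries. Fabp4 had 260 and 195. Of the 6 genes compared, 3 were higher (50%, against 5.12% of all genes) and 1 lower (16.7%, against 5.93%). Their source was not tested.

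Mitosis genes were low in both libraries, with a summed level of 110 CPM in SD and 90.1 in corn oil against 734 in CCl4. Of 24 compared, the 5 that were past 2-fold higher (20.8%, against 5.12% of all genes) had at most 93 counts. Ccnd1, which encodes cyclin D1, had 963 and 300 (-1.53). Of the zonal lists, 4 of 19 pericentral genes (21.1%) and 2 of 20 periportal genes (10%) were higher, against 5.12% of all genes. None was lower, and 3 and 0 were higher with the length bins subtracted. The higher ones included the pericentral ammonium transporter Rhbg (75 and 200) and the Wnt target Lgr5 (37 and 85), while Glul, the pericentral glutamine synthetase, was at -0.13.

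Other genes with the largest falls belonged to no list. Gm10052 had 419 counts in SD and 0 in corn oil, 126-fold higher in SD against a floor of 3 counts. Its log2 ratio was -7.65, with a counting interval below -6.67. Abhd2, a lipase of the α/β hydrolase family, had 2711 and 266 (-3.19), and Cntnap1, a contactin-associated membrane protein, 2813 and 428 (-2.56). Cpne5, a calcium-dependent phospholipid-binding protein, had 516 and 18, and 1 count in each HFD library, so its high value was found in SD alone of the 6. Igfbp5, an insulin-like growth factor binding protein, was among the largest rises, with 58 and 567 counts (3.39).

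A list of genes measured by qPCR or western blot in mouse liver, which is not complete, was also compared. Of its 26 genes, Acta2 and Timp1 (2 and 12 counts) were past 2-fold higher in corn oil (7.69%, against 5.12% of all genes) and none was lower. Adgre1 and Hmox1, also measured by qPCR but absent from that list, were both past the fold on the lower side, as given above. The adiponectin receptor genes Adipor1 and Adipor2 were at -0.01 and -0.60, and the AMPK subunits Prkaa1 and Prkaa2 at -0.88 and -0.71. Adipor2 had 13356 counts in SD and 7941 in corn oil. With the length bins subtracted Adipor2 was at -0.39 and Prkaa2 at -0.33.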

How the data were processed

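Total liver RNA was sequenced on a BGISEQ-500, 1 library per group. The authors deposited an expected count per gene (estimated reads, not normalized) and an FPKM value per gene for each library. Submitters' processing notes name HISAT, Bowtie2, RSEM and mm9, without versions. The 4 comparison tables of the authors, with fold changes and p-values, were not used, nor were 8 expression columns in them.

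Expected counts were rounded. TMM factors over the 6 libraries (edgeR 4.0.16, R 4.3.3) were 0.934 in SD and 0.876 in corn oil. Log2 ratios, intervals and lists were computed in Python 3.11.15 (numpy 2.4.6, pandas 2.3.3, scipy 1.17.1, matplotlib 3.10.9). On simulated counts with counting error only, which hold no spread between mice, for 13302 genes of this comparison, 94% to 100% of genes changed by a log2 of 1.5 were past 2-fold, as were 0.669% of unchanged genes. Named genes were the 15 largest rises and falls with 100 or more counts in the higher library, the 10 largest gains and losses in CPM, list members past 2-fold and the qPCR or western blot genes. Members and lists were chosen with earlier results of these data known. Promoter motifs were searched on both strands. Symbols were checked in a RefSeq table, in which 18403 of 18444 identifiers were found, and promoters came from RefSeq. Alternatives were total counts, other scaling factors (DESeq2 1.42.0 among them), filters, prior counts, FPKM, length and GC bins, and edgeR's exact test with an assumed spread. A few list members counted in the totals are not reported here by name.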

Additional observations from a re-analysis of the deposited data

How the results depend on the processing

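The 1470 genes past 2-fold (681 higher, 789 lower) were 2268 with every gene of at least 1 count, of which 1265 were higher. They were 634 with 100 or more counts (227 higher, 407 lower), 253 past 4-fold (142 and 111), 422 on log2 of FPKM plus 1 (154 and 268) and 523 when the counting interval also had to lie past 2-fold (236 and 287). edgeR's exact test at an adjusted p under 0.05 gave 375 with an assumed coefficient of variation of 0.2 (168 and 207), and 15 with 0.4 (12 and 3), so the count rests on the spread assumed between mice. HFD over SD had 695 genes past 2-fold with 100 or more counts and 271 past 4-fold, and CCl4 over corn oil had 813 and 500. Other scaling factors, a prior count of 0.5, GC bins and leaving out the Mup genes gave 1397 to 1612; GC bins and leaving out Mup genes were chosen after seeing the data. Lower genes were the more numerous in the main result, but higher genes were with every gene of at least 1 count, past 4-fold and in the exact test with 0.4. Higher genes also led with Mup genes left out of the totals (770 higher, 703 lower), where the TMM factors still came from the full counts. None of the 180 genes that were named or past 2-fold in a list changed sign, whereas the median of the adipocyte list was -0.12 in place of 0.89 with 100 or more counts, and other medians near 0 changed sign. Of the 180 genes, 21 moved inside 2-fold with the length bins subtracted, 13 with total counts and 40 with FPKM plus 1. No paired analysis was possible because the result comes from no test and each group has 1 library.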
